A study of Mus musculus with 2 samples.

Results

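Natural killer (NK) cells of the mouse heart were picked out of single-cell transcriptomes by their counts of 5 genes. A cell was taken as an NK cell when Nkg7, Gzma, Ncr1, Klrb1c and Klre1 together gave at least 3 unique molecular identifiers (UMIs, each standing for 1 captured RNA molecule). It also had to carry no UMI of the T cell genes Cd3e, Cd3d and Cd3g, of the B cell genes Cd79a and Cd79b or of the endothelial genes Pecam1 and Cdh5. At most 1 UMI of C1qa, C1qb and C1qc (macrophages), at most 3 of Dcn, Col1a1 and Col3a1 (fibroblasts) and at most 10% mitochondrial UMIs were allowed. The rule found 66 of 10667 deposited cells, 35 of 5800 in the wild-type library and 31 of 4867 in the AC8 library.

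The study set hearts of C57/B6 mice that overexpress adenylyl cyclase type 8 (AC8), an enzyme that makes cyclic AMP, beside hearts of wild-type littermates, with no treatment in either group. The series title places the transgene in cardiomyocytes, a cell type outside the sorted fractions, and the promoter that drives it is not named in the sources used here. Hearts of several mice were pooled within each genotype, and the number of mice and their age are not given in the sources used here. Cells were sorted on CD45 and CD31 into leukocytes, resident mesenchymal cells and endothelial cells, and equal numbers of these 3 fractions entered 1 droplet library per genotype.

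NK cells are innate lymphocytes that kill infected, stressed or transformed cells without an antigen receptor of their own. They weigh signals from activating receptors against signals from inhibitory receptors that recognise MHC class I, and they kill by releasing perforin and granzymes from granules or by death ligands such as Fas ligand. They also secrete chemokines and interferon gamma, and most circulating NK cells depend on interleukin-15 and on the transcription factors T-bet and Eomes.

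With 1 library per genotype there was no replicate and no test, and every difference given here is between these 2 libraries, not between the genotypes. Levels are in CPM, the UMIs of a gene summed over the NK cells of a library and scaled to 1e+06 UMIs. Brackets hold 95% intervals, exact Poisson for a level, exact Clopper-Pearson for a share and exact binomial for a ratio, which cover counting error only. In these droplet libraries 1 UMI over all NK cells was worth 27.8 CPM in wild type against 22.2 CPM in AC8, so low genes move in large steps.

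The NK cells of the AC8 library were the deeper ones. The wild-type NK cells held 35973 UMIs, with a median of 959 per cell and a range of 501 to 2153. The AC8 NK cells held 45117 UMIs, with a median of 1236 and a range of 546 to 5030. Of the wild-type NK cells 54.3% had under 1000 UMIs, and of the AC8 NK cells 29.0%. The same difference in depth ran through the whole libraries, whose medians were 1344 UMIs per cell in wild type and 1832 in AC8. A median of 635 genes per NK cell was detected in wild type and 815 in AC8, and no NK cell was called a doublet by a comparison with simulated pairs of cells.

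Genes of the rule mark the cells by construction, so their levels are a description. Nkg7, a membrane protein of cytotoxic granules, lies on chromosome 7 from 43437073 to 43438249 on the plus strand of GRCm38 (the mm10 build, GENCODE vM21 annotation). Gzma, which encodes the serine protease granzyme A, lies on chromosome 13 from 113093825 to 113100981 on the minus strand. Ncr1 encodes the activating receptor NKp46 and lies on chromosome 7 from 4337724 to 4345164 on the plus strand. Gzmb, which is outside the rule and encodes granzyme B, lies on chromosome 14 from 56258838 to 56262260 on the minus strand. The promoters of these 4 genes are shown because their transcripts mark the cells, each as 300 bases from 250 before to 50 after the RefSeq start (GRCm38.p6), read 5′ to 3′ along the gene's strand. Capitals mark matches to 3 short motifs on either strand: the T-box half-site TCACAC (T-bet and Eomes are T-box factors), the Runx letters TGTGGT and the Ets letters AGGAAG. The windows are chr7:43436888-43437187 (plus) for Nkg7, chr13:113100932-113101231 (minus) for Gzma, chr7:4337465-4337764 (plus) for Ncr1 and chr14:56262285-56262584 (minus) for Gzmb.
Nkg7: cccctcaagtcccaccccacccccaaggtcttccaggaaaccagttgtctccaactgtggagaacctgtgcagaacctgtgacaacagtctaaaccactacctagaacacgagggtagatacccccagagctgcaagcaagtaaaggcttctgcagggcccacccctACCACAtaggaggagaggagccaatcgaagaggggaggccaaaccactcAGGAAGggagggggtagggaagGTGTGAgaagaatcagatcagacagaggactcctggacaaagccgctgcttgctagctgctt
Gzma: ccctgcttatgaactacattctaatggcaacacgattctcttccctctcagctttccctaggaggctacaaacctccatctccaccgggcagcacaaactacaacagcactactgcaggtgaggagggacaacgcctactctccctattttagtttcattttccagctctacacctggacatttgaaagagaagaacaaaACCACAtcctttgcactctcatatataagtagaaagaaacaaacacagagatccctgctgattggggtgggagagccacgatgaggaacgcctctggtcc
Ncr1: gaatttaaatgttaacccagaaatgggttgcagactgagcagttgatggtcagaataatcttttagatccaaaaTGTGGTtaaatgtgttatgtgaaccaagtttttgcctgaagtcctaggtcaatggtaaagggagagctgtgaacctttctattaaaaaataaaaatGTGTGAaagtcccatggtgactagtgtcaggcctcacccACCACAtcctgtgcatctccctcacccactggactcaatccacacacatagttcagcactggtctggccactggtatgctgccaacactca
Gzmb: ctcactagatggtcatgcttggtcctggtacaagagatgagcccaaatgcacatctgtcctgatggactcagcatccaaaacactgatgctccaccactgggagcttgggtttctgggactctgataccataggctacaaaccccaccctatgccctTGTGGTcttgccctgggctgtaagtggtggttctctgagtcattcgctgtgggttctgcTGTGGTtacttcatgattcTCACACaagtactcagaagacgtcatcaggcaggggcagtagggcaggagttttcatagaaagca

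Promoters were searched for the 5 rule genes and the 20 further genes highest in NK cells over all other cells. Of these 25 genes 20 had a promoter in the RefSeq table. The Runx letters stood in 12 of the 20 (60%), against 16.8% of all 32851 promoters of this length in the table. All 5 rule genes were among those 12. The T-box letters stood in 6 of 20 (30%), against 14.5% of all promoters, and were found for Nkg7, Ncr1, Klre1, Gzmb, Sytl3 and Xcl1. The Ets letters stood in 8 of 20 (40%), against 35.4%. A match of letters is a description and not a bound site.

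Few cells lay near the threshold in either library. Among cells that met every other criterion, 647 in wild type and 483 in AC8 had no UMI of the rule genes, and no cell in either library had exactly 3. Just inside the threshold were 3 wild-type cells with a sum of 4, and in AC8 1 cell with 4 and 1 with 5. Just outside it were 3 wild-type cells with a sum of 2 and 3 with 1, and 2 AC8 cells with 1. A sum of 10 or more was reached by 26 of 35 NK cells from wild type and by 27 of 31 from AC8. The median sum was 15 in wild type and 20 in AC8. The 3 wild-type cells with a sum of 2 held 4 UMIs of Nkg7 between them and none of Gzma, and 2 of them had Ccl5 UMIs. Ctsw was also found in 2 of them, and Klrd1, Klrk1 and Tyrobp in 1 each, so some may be NK cells that the rule missed.

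**Figure D1:**
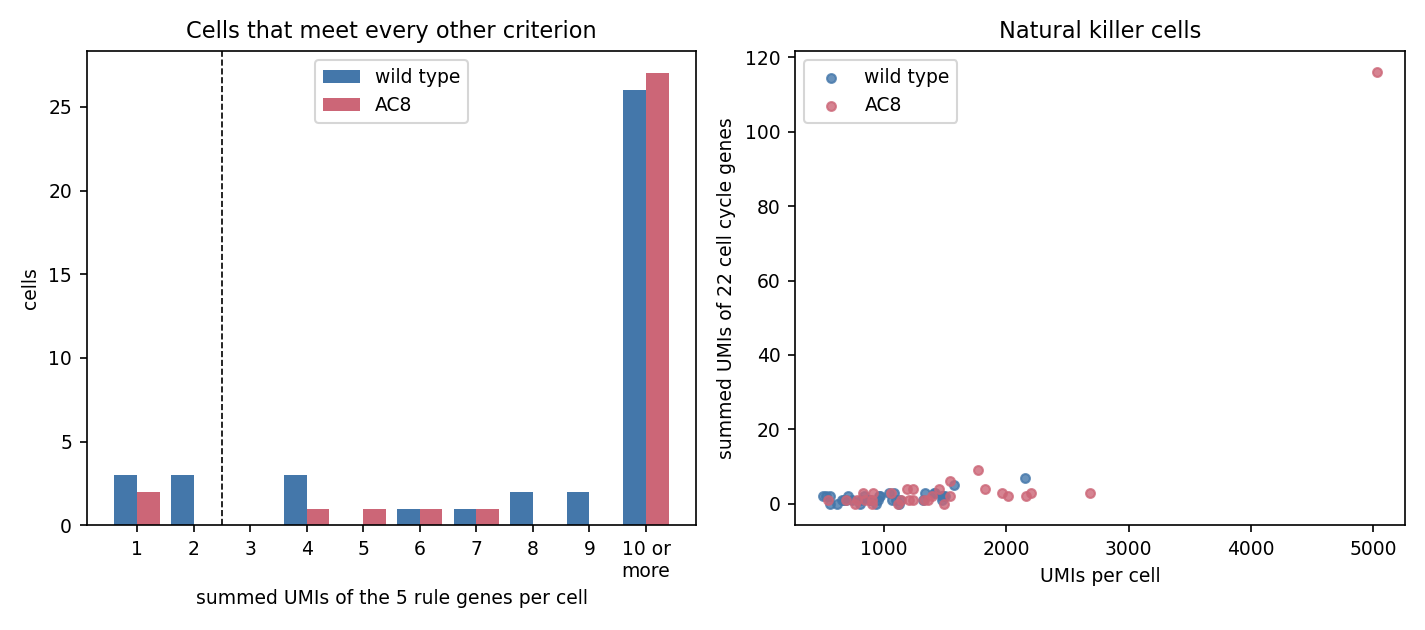
Left, the number of cells (vertical axis) by their summed UMIs of the 5 rule genes (horizontal axis, cells with at least 1) for the wild-type and AC8 libraries, with a dashed line at the threshold: 26 and 27 cells reach 10 or more and none has 3. Right, each NK cell's summed UMIs of 22 cell cycle genes against its total UMIs: 1 AC8 cell with 5030 UMIs holds 116, and no other exceeds 9.

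Gzma was the most abundant rule gene. It had 394 UMIs in wild type, 10953 CPM (9898 to 12089), and 573 UMIs in AC8, 12700 CPM (11682 to 13784), and was found in 33 of 35 and 28 of 31 cells. Nkg7 had 142 and 174 UMIs, 3947 CPM in wild type against 3857 CPM in AC8. These 2 genes were seen in nearly every NK cell, while the receptors were caught in fewer. Ncr1 had 22 UMIs in 15 wild-type cells and 36 UMIs in 20 AC8 cells. Klrb1c, which encodes the NK1.1 antigen of this strain, had 23 UMIs in 15 wild-type cells and 39 in 23 AC8 cells. Klre1, a lectin-like receptor that pairs with inhibitory or activating partners, had 30 UMIs in 20 cells and 26 UMIs in 16 cells. Every NK cell held UMIs of at least 2 of the 5 genes, and 4 wild-type and 8 AC8 cells held all 5.

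Other genes that NK cells express were found beside those of the rule. Ccl5, a chemokine that draws T cells and monocytes, had a UMI in all 66 cells, with at least 2 UMIs per cell in wild type and at least 4 in AC8. The median cell had 17 Ccl5 UMIs in wild type and 30 in AC8. T cells, taken as cells with at least 2 Cd3 UMIs and none of the 5 NK genes (42 in wild type and 70 in AC8), had 281 CPM of Ccl5 in wild type and 517 CPM in AC8, against 19515 and 22807 CPM in NK cells. Besides Ccl5, the 20 genes that stood highest above all other cells in both libraries were Klra4, Prf1, Klra8, Eomes, Klra7, Gzmb, Klrc1, Fasl, Il2rb, Sytl3, Tbx21, Txk, Ctsw, Klrk1, Serpinb6b, Sh2d2a, Xcl1, Klrd1 and Ms4a4b. The 10 highest above T cells were Ccl5, Gzmb, Ccl4, Irf8, Prf1, Klra4, Klra8, Xcl1, Fcer1g and Klra7. The defining NK genes outside the rule, Eomes, Tbx21, Prf1, Gzmb, Klrd1 and Klrk1, were thus present in both libraries. Cells were chosen by their counts, so none of these contrasts was tested.

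**Figure D2:**
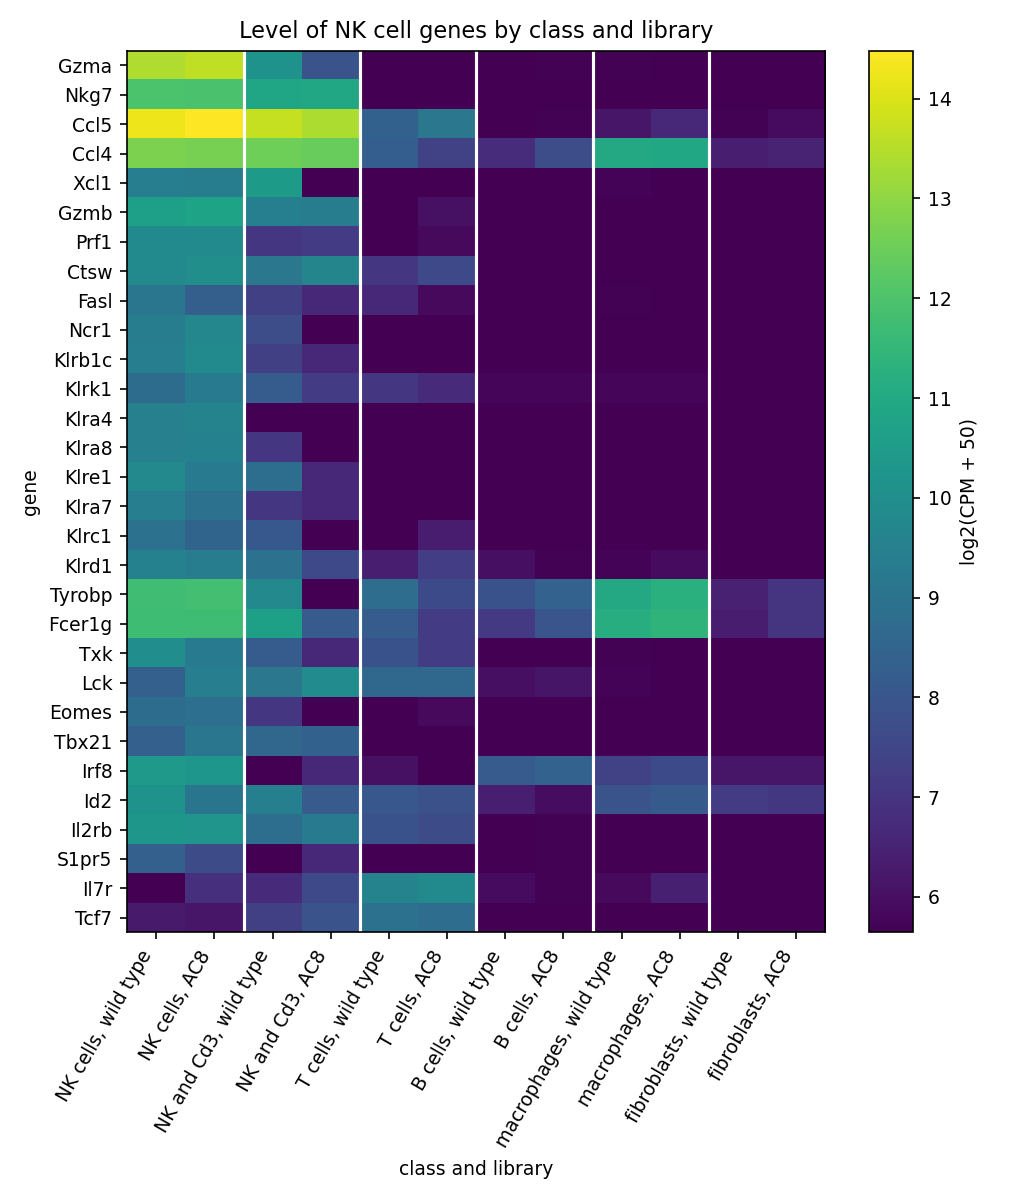
Level of 30 genes (rows) as log2(CPM + 50) in 6 classes of cells in the wild-type and AC8 libraries (columns), where the second class holds cells with at least 3 NK UMIs and at least 1 Cd3 UMI. Gzma, Ccl5 and the Klra genes are brightest in the NK columns (Gzma 10953 and 12700 CPM), Il7r and Tcf7 are brightest in T cells (Il7r 728 and 877 CPM), and Tyrobp, Fcer1g and Ccl4 are shared with macrophages.

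Against T cells the NK cells had few UMIs or none of several genes, among them Ccr7, Il7r and Tcf7, which are typical of naive T cells. Ccr7, a receptor for homing to lymph nodes, had no UMI in NK cells of either library and stood at 844 and 1182 CPM in T cells. Il7r, the interleukin-7 receptor, had 0 UMIs in wild-type and 3 in AC8 NK cells, all 3 in 1 cell, and 728 and 877 CPM in T cells. Tcf7, a T cell transcription factor, had 1 UMI in each library's NK cells, against 447 and 399 CPM in T cells. Cd74, the invariant chain of MHC class II, had 7 UMIs in each library's NK cells, 195 and 155 CPM, against 2878 and 3195 CPM in T cells. The other genes lowest against T cells were Ifi27l2a, Igfbp4, Tmem176b, H2-Aa, H2-Eb1 and Tnfsf11. Cd74, H2-Aa and H2-Eb1 are on the list of dendritic cell markers, and the source of their UMIs in T cells was not tested. Ribosomal protein genes took a median of 16.7% of the UMIs of a wild-type NK cell and 13.7% in AC8, and 37.2% and 33.2% in T cells.

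Markers of most other cells were low. Of 18 T cell markers in the matrix, NK cells held 15 UMIs in wild type and 29 in AC8, 417 and 643 CPM summed, which includes the Cd3 genes that are 0 by the rule. UMIs of the T cell receptor constant genes Trac, Trbc1 and Trbc2 were found in 7 of 35 wild-type NK cells (20%, 8.44 to 36.9) and 9 of 31 AC8 NK cells (29.0%, 14.2 to 48.0), against 21 of 42 T cells (50%) and 47 of 70 (67.1%). In AC8 Trbc1 was found in 25.8% of NK cells and 22.9% of T cells, and in 5.71% and 21.4% in wild type. Of 15 macrophage markers there were 13 and 11 UMIs, of 11 fibroblast markers 22 and 15, of 12 endothelial markers 8 and 4, and of 10 neutrophil markers 1 and 2. Of 14 B cell markers there were 26 and 32 UMIs, mostly the broader leukocyte gene Cd37 with 21 and 29, while Igkc and Ms4a1 were at 0. Mural and Schwann cell markers gave 17 UMIs in wild type and 5 in AC8, and 15 of the wild-type UMIs were Rgs5 in 1 cell. Monocyte markers gave 33 and 38 UMIs, of which Ly6c2, a gene that NK cells also express, made 28 and 29. Group 2 innate lymphoid cell markers gave 10 and 13 UMIs and group 3 markers 0 and 1.

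The cells carried more UMIs of genes of conventional NK cells than of genes of tissue-resident type 1 innate lymphoid cells (ILC1), their close relatives. Of 14 conventional NK markers 10 were measured, meaning that they had at least 20 UMIs over both libraries, and the 14 summed to 8979 CPM in wild type against 8844 CPM in AC8. Of 14 ILC1 markers 1 was measured, and the list held 27 UMIs in wild type and 46 in AC8. Xcl1, a chemokine that both kinds of cell make, gave 23 and 27 of these. Itga1 and Cxcr6, which mark ILC1, had 0 and 0 UMIs in wild type and 1 and 2 in AC8. Eomes had 14 UMIs in 11 wild-type cells and 19 UMIs in 12 AC8 cells. S1pr5, a receptor that lets NK cells leave bone marrow and lymph nodes, had 10 and 7 UMIs, and Cma1, a chymase gene on chromosome 14 from 55941451 to 55944675, had 8 and 10. Itga2 and Itgam, also on the conventional list, were found in few cells. Itga2 was found in 4 of 35 wild-type and 3 of 31 AC8 cells, and Itgam in 3 and 2.

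A few cells departed from this pattern. No Gzma UMI was found in 5 NK cells, 2 in wild type and 3 in AC8, and Eomes was seen in 1 of the 5. One of them, an AC8 cell with 1328 UMIs, held both Cxcr6 UMIs and the only Itga1 UMI of the NK cells. Another, an AC8 cell with 2687 UMIs, held the 3 Il7r UMIs, 11 UMIs of the ILC1 list and 4 of the T cell list. These cells were named after their counts were seen.

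The share of NK cells among leukocytes was 2.89% in wild type (34 of 1178 cells, 2.01 to 4.01) and was lower in AC8 at 2.01% (31 of 1542 cells, 1.37 to 2.84). Leukocytes were cells with at least 3 UMIs of Ptprc, Cd52, Cd53, Laptm5, Coro1a, Lcp1, Rac2 and Arhgdib summed and with the same limits on fibroblast and endothelial genes. The difference of -0.88 percentage points had an interval of -2.17 to 0.33, which includes no difference. NK cells per T cell numbered 0.833 in wild type (35 to 42) and 0.443 in AC8 (31 to 70), and the ratio of these was 0.53 (0.27 to 1.03). With a minimum of 1000 UMIs per cell the share was 1.82% in wild type and 1.77% in AC8, a difference of -0.05 points (-1.38 to 1.15). With every cell thinned to 500 UMIs the share was 4.62% in wild type and 2.33% in AC8, a difference of -2.30 points (-4.33 to -0.44). That share has 32 NK cells among 692 leukocytes in wild type and 22 among 945 in AC8, since both rules were applied to the thinned counts. Cells that met the NK rule numbered 39 in wild type and 28 in AC8 after thinning. What moved the share was not tested. The mixing of sorted fractions sets the share of all cells, and it is not compared.

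Whether a cell with any Cd3 UMI is counted moves these values. Cells with at least 3 NK UMIs and at least 1 Cd3 UMI numbered 18 in wild type and 9 in AC8. In wild type 5 of the 18 had a single Cd3 UMI, and in AC8 none did. Constant genes of T cell receptor alpha or beta were found in 12 of the 18 and 6 of the 9, Cd8b1 in 4 and 5, and Tyrobp or Fcer1g, adaptors of NK receptors, in 10 and 2. Their Gzma was lower, 41 UMIs in 5 of 18 cells (1125 CPM) and 4 UMIs in 1 of 9 cells (191 CPM). Counted as NK cells in an alternative chosen after the data were seen, they brought the shares to 4.41% and 2.59%, a difference of -1.82 points (-3.34 to -0.38), and the ratio of NK cells per T cell to 0.45 (0.25 to 0.82).

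The comparison of the genotypes rested on 638 genes measured in NK cells. Ratios of AC8 over wild type are given as log2 with 50 CPM added to both levels, which draws low genes toward 0. Of the 638, 309 were higher and 329 lower in AC8, with a median log2 ratio of -0.02 and quartiles of -0.34 and 0.30. A log2 ratio of at least 1, called 2-fold apart here, was reached by 16 genes higher in AC8, 2.51% of those measured. A ratio of -1 or below was reached by 28 genes, 4.39%, so that 6.9% were 2-fold apart in either direction. The counting interval of the plain ratio left out 1 for 11 of the 16 and 23 of the 28. Of the 28 lower genes 13 encoded ribosomal proteins, 1 was mitochondrial and 14 were others.

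**Figure D3:**
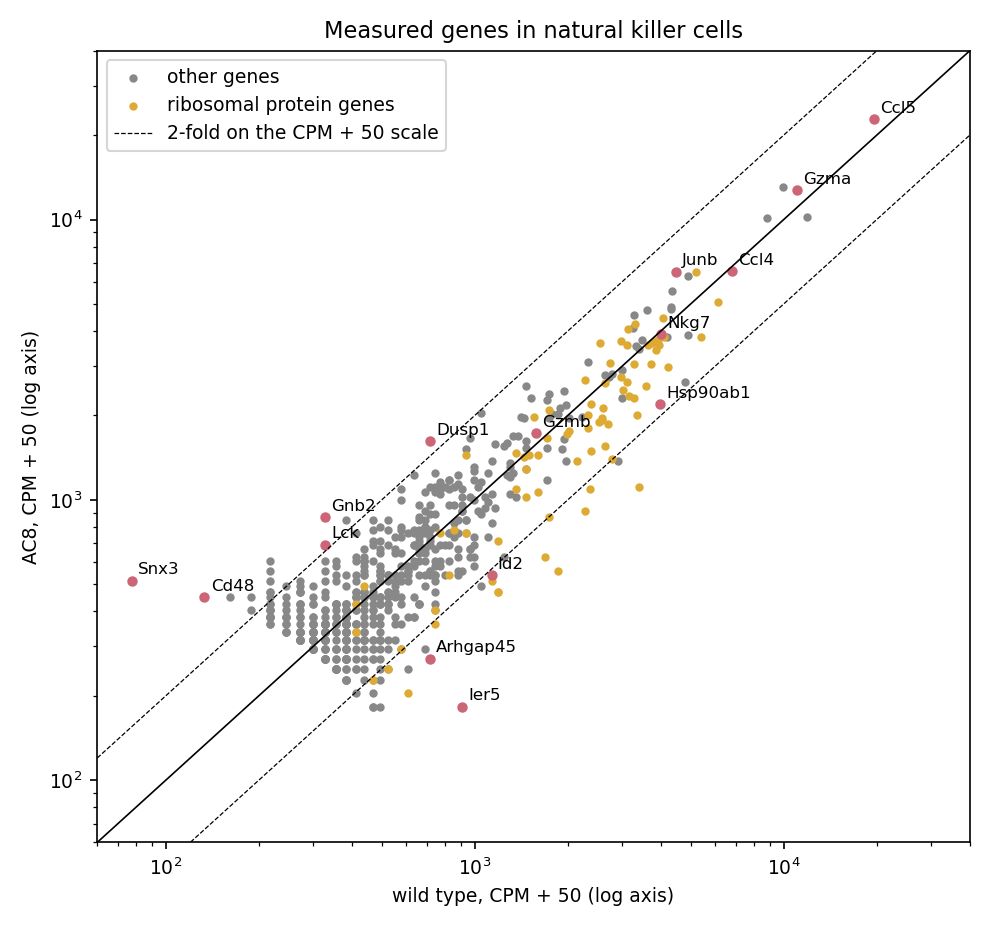
Each point is a gene measured in NK cells, with its level in wild type (horizontal) and in AC8 (vertical) as CPM + 50 on log axes, ribosomal protein genes in yellow and labelled genes in red, and dashed lines 2-fold from the diagonal. Most genes lie between the dashed lines, Ccl5, Gzma and Ccl4 are the highest of the labelled genes, and Ier5 and Arhgap45 lie below the lower line.

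No measured gene of the killing machinery was 2-fold apart. Of 25 genes for cytotoxic granules and death ligands 12 were measured, 5 higher and 7 lower in AC8, with a median of -0.03. The list summed to 23545 and 24226 CPM, mostly from the rule genes Gzma and Nkg7, which chose the cells. Without these, a choice made after the data were seen and repeated for the receptor lists, 10 genes were measured, 4 higher and 6 lower, with a median of -0.18, and the sum was 8645 CPM in wild type against 7669 CPM in AC8, a ratio of 0.89 (0.76 to 1.04). Leaving out the AC8 cell of most UMIs as well gave 5 higher and 3 lower of 8, a median of 0.01 and a ratio of 0.88 (0.75 to 1.03). Gzmb had 55 UMIs in 18 wild-type cells, 1529 CPM (1152 to 1990), and 76 UMIs in 17 AC8 cells, 1685 CPM (1327 to 2108). Prf1, the pore-forming perforin on chromosome 10 from 61297833 to 61304680, stood at 862 CPM in wild type against 864 CPM in AC8, and the interval of its ratio ran from 0.61 to 1.66. Gzma, a rule gene, was 1.16 times as high in AC8 as in wild type, but 1 AC8 cell held 110 of its 573 UMIs, and without that cell the ratio was 1.05 (0.92 to 1.21). The ratio farthest from 1 among the 12 was that of Fasl, Fas ligand, with 18 UMIs in wild type and 12 in AC8, a log2 ratio of -0.80 whose interval as a plain ratio, 0.23 to 1.17, includes 1. Serpinb9, an inhibitor that protects the killer cell from its own granzyme B, had 27 and 22 UMIs and a log2 ratio of -0.57.

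Granzyme B and perforin were not seen in every cell. Both were found in 9 wild-type and 12 AC8 cells, and neither in 9 of each. Gzmb alone was found in 9 and 5 cells and Prf1 alone in 8 and 5. Gzmk and Gzmm had no UMI in the NK cells, and a count of 0 leaves room for 83.4 CPM (wild type) and 66.5 CPM (AC8), the value of 3 UMIs.

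Activating receptors were mostly higher in AC8, by small steps. Of 20 genes in the matrix 8 were measured, all 8 higher, with a median log2 ratio of 0.38 and none 2-fold apart, but Ncr1 and Klrb1c among them are rule genes. Of the 6 measured outside the rule all 6 were higher, with a median of 0.38, and the 18 list genes outside the rule summed to 3169 CPM in wild type against 4189 CPM in AC8, a ratio of 1.32 (1.04 to 1.68). Klrk1, which encodes the stress-ligand receptor NKG2D, had 14 UMIs in 9 wild-type cells and 25 UMIs in 16 AC8 cells, a ratio of 1.42 (0.71 to 2.96). Klrc2 (NKG2C) had 6 and 15 UMIs, the largest log2 ratio of the list at 0.82. Klra8 (Ly49H, which recognises a cytomegalovirus protein) had 24 and 31 UMIs and a log2 ratio of 0.04, and Klra4 (Ly49D) had 24 and 33 and a log2 ratio of 0.12. Cd7 and Cd2, lymphocyte surface proteins that support activation, had log2 ratios of 0.51 and 0.30. For each of these genes the counting interval includes 1. With cells that carry a Cd3 UMI kept, Cd7 was at -0.19 and Cd2 at -0.07. Klra8 turned to between -0.50 and 0 in 4 alternatives, among them a minimum of 1000 UMIs per cell (-0.50) and leaving out the AC8 cell of most UMIs (-0.04). Without that cell 4 of 5 measured genes outside the rule were higher and 1 was lower.

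Inhibitory receptors went mostly the other way. Of 22 genes 6 were measured, 1 higher and 5 lower in AC8, none 2-fold apart, with a median of -0.47, and 1 of the lower genes is the rule gene Klre1. Of the 5 outside the rule 1 was higher and 4 were lower, with a median of -0.46, and the 21 list genes outside the rule summed to 2974 and 2505 CPM, a ratio of 0.84 (0.64 to 1.11). Klra9 (Ly49I) had 15 and 10 UMIs and a log2 ratio of -0.78. Klra7 (Ly49G) had 23 and 20 UMIs and a log2 ratio of -0.48. Klrc1, which encodes NKG2A, had 16 and 14 UMIs, and its partner Klrd1 (CD94) 25 and 28, with log2 ratios of -0.46 and -0.15. Klrb1a was the measured gene that was higher, with 7 and 13 UMIs and a log2 ratio of 0.47. It was at -0.25 with a minimum of 1000 UMIs per cell. All of these intervals include 1, and the difference between the 2 receptor lists was not tested. The lists place Klrb1a with the inhibitory receptors and Klrb1b, with 3 and 2 UMIs, with the activating ones. Klrb1b is the inhibitory member of this pair, so the counts and sums of both lists carry that misplacement. Pdcd1 and Havcr2, receptors of exhausted lymphocytes, had no UMI in either library's NK cells.

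The receptor genes sit together in the genome. Not counting Klrg1, 17 Klr genes with a UMI in the NK cells lie in the NK gene complex on chromosome 6 between 128609227 and 130386874, a span of 1.78 Mb. They held 231 UMIs in wild type and 285 in AC8, Klrb1c and Klre1 of the rule included, and 7 of them are Ly49 (Klra) genes. A Ly49 UMI was found in 29 of 35 wild-type and 26 of 31 AC8 cells, and UMIs of 2 or more Ly49 genes in 16 cells of each. Ly49 genes are close copies of each other, so the split of reads among them is uncertain.

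Adaptors that couple receptors to kinases were among the best counted genes. Fcer1g had 121 and 153 UMIs, 3364 and 3391 CPM, and Tyrobp (DAP12) 123 and 165 UMIs, 3419 and 3657 CPM. Tyrobp was found in 94.3% of wild-type and 93.5% of AC8 NK cells, and in 7.77% and 12.8% of B cells, which should lack it, at median depths of 885 and 1053 UMIs per B cell. Hcst (DAP10), the partner of NKG2D, had 20 and 32 UMIs. Of the 6 measured genes of the adaptor list 5 were higher, with a median of 0.13, and 1, Lck, was 2-fold higher, beside 2.51% of all measured genes. Lck, a kinase that starts receptor signalling, on chromosome 4 from 129548344 to 129573641, had 10 UMIs in 8 wild-type cells and 29 UMIs in 16 AC8 cells, 278 CPM (133 to 511) and 643 CPM (430 to 923), a ratio of 2.31 (1.10 to 5.32). In T cells Lck stood at 347 and 345 CPM. Txk, a Tec family kinase, was the lower gene, with 34 and 26 UMIs and a log2 ratio of -0.67.

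**Figure D4:**
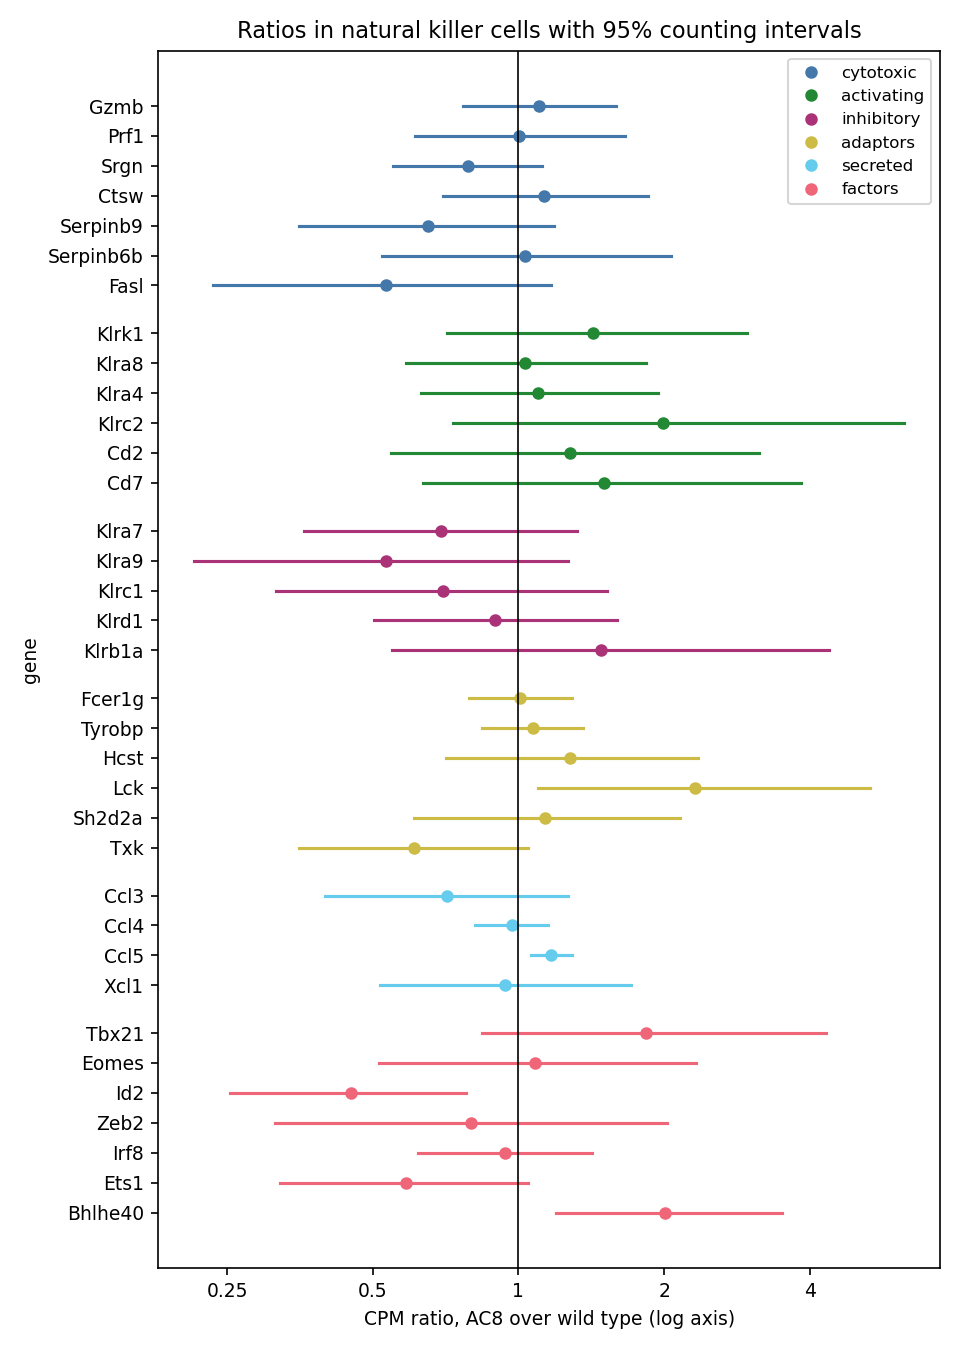
Ratio of the level in AC8 over that in wild type NK cells (log axis) for measured genes of 6 role lists outside the 5 rule genes, with 95% counting intervals as bars and a line at a ratio of 1. Activating receptors lie to the right of the line and all but 1 of the genes listed as inhibitory to the left, each with an interval across it. The exception is Klrb1a. The bars of Lck, Ccl5, Id2 and Bhlhe40 do not cross the line.

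Fcgr3, which encodes the antibody receptor CD16 that NK cells are known for, had no UMI in any of the 66 cells. The limit set by 3 UMIs was again 83.4 CPM (wild type) and 66.5 CPM (AC8). The gene was counted elsewhere in the libraries, with 1077 and 1563 UMIs in all cells and 646 and 481 CPM in macrophages. No cause was tested.

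Chemokines were the strongest secreted products. Ccl5, on chromosome 11 from 83525778 to 83530518, had 702 UMIs in wild type and 1029 in AC8, a ratio of 1.17 (1.06 to 1.29). Ccl4, a chemokine gene on the same chromosome from 83662584 to 83664683, had 242 and 294 UMIs, 6727 CPM (5906 to 7630) and 6516 CPM (5793 to 7305). It was found in 88.6% and 80.6% of NK cells, and in 1.94% and 1.37% of B cells. Ccl3 had 28 and 25 UMIs and Xcl1, which attracts cross-presenting dendritic cells, 23 and 27. Any of Ccl3, Ccl4 and Xcl1 was found in 32 of 35 and 28 of 31 cells. Ifng had 10 UMIs in 8 wild-type cells and 8 UMIs in 5 AC8 cells, too few to be measured. Tnf, Csf2 and Il10 had none. Of the 5 measured genes of this list 2 were higher and 3 lower, none 2-fold apart, with a median of -0.05.

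Of 27 transcription factors 11 were measured, 4 higher and 7 lower, with a median of -0.28. Id2, which blocks E proteins and is needed by innate lymphocytes, was the 1 gene of them 2-fold apart, beside 6.9% of all measured genes. It had 39 UMIs in 18 wild-type cells, 1084 CPM (771 to 1482), and 22 UMIs in 14 AC8 cells, 488 CPM (306 to 738), a ratio of 0.45 (0.25 to 0.78). In all other cells Id2 stood at 112 and 128 CPM. Bhlhe40, a basic helix-loop-helix factor of activated lymphocytes, was higher in AC8, with 21 UMIs in 16 cells and 53 UMIs in 24 cells, 584 and 1175 CPM, a ratio of 2.01 (1.19 to 3.51) and a log2 ratio of 0.95. Tbx21 (T-bet) had 10 and 23 UMIs, a ratio of 1.83 (0.84 to 4.32), and Eomes had a ratio of 1.08 (0.51 to 2.33). A UMI of either gene was found in 18 cells of each library and of both in 3 and 7. Irf8, needed for NK cell expansion, had 46 and 54 UMIs and a log2 ratio of -0.09.

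Signalling chains of the interleukin-15 receptor were found in both libraries. Il2rb, the beta chain, was at like levels, with 44 and 53 UMIs, 1223 and 1175 CPM. Il2rg, the common gamma chain, was higher in AC8, with 17 and 33 UMIs, a ratio of 1.55 (0.84 to 2.96) whose interval includes 1. Of 7 measured genes of the cytokine receptor list 3 were higher and 4 lower, with none 2-fold apart and a median of -0.05. Of 8 measured homing and adhesion genes 4 were higher and 4 lower, with a median of -0.06. Of the 8, 2 were 2-fold higher, beside 2.51% of all 638 measured genes. Cd48, the ligand of the NK receptor 2B4, had 3 UMIs in 3 wild-type cells and 18 UMIs in 13 AC8 cells, 83.4 and 399 CPM, a ratio of 4.78 (1.40 to 25.4). Itgb7, an integrin chain, had 5 and 16 UMIs, a ratio of 2.55 (0.89 to 8.91). Itga4, the integrin chain that pairs with it, was lower, with 25 and 16 UMIs and a log2 ratio of -0.88.

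Among the 12 genes with the highest log2 ratios under the rule for naming, Ubl5, a ubiquitin-like protein, had 6 UMIs in 4 wild-type cells and 25 UMIs in 16 AC8 cells, a log2 ratio of 1.48. Gnb2, a beta subunit of heterotrimeric G proteins, on chromosome 5 from 137528127 to 137533510, had 10 UMIs in 8 cells and 37 UMIs in 17 cells. Its levels were 278 CPM (133 to 511) and 820 CPM (577 to 1130), a ratio of 2.95 (1.44 to 6.65), against 408 and 539 CPM in all other cells. Dusp1, a phosphatase that switches off MAP kinases, had 24 UMIs in 13 cells and 71 UMIs in 22 cells, 667 and 1574 CPM, a ratio of 2.36 (1.47 to 3.92). One AC8 cell held 17 of the 71, and Dusp1 stood at 2885 and 2805 CPM in all other cells. The others, besides Lck, Bhlhe40 and Tuba1b, were Gem, Zyx, Ppp1r18, Atp5h, H2az1 and Ptpn18, with log2 ratios from 0.79 to 0.92. With cells that carry a Cd3 UMI kept, the log2 ratio of Dusp1 was 0.54 and that of Ubl5 0.22.

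Ier5, an immediate-early gene, had the lowest log2 ratio of the named genes at -2.32. It had 31 UMIs in 17 of 35 wild-type cells and 6 UMIs in 5 of 31 AC8 cells, 862 CPM (586 to 1223) and 133 CPM (48.8 to 289), a ratio of 0.15 (0.05 to 0.38). All other cells had 335 and 207 CPM. Arhgap45 had 24 and 10 UMIs and a log2 ratio of -1.40, while all other cells had 52.4 and 80.4 CPM. Ccnl1, a cyclin of RNA splicing, had 23 and 11 UMIs (-1.23). Tpt1 had 103 and 60 UMIs (-1.08), and Eef1a1, a translation elongation factor, 171 and 117 (-0.86). Both were also lower in all other AC8 cells, Tpt1 at 2505 and 1495 CPM and Eef1a1 at 3590 and 2751 CPM. The others besides Id2, Itga4, Fasl and the heat shock genes were Sp100 (-0.98) and Dusp5 (-0.80).

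Outside the naming rule, and chosen after their values were seen, stood Snx3, Cd53 and H2-Q6. Snx3, a sorting nexin, had 1 UMI in wild type and 21 UMIs in 13 AC8 cells, a ratio of 16.7 (2.69 to 692), against 299 and 363 CPM in all other cells. Cd53, a leukocyte tetraspanin, had 20 and 9 UMIs and a log2 ratio of -1.28. H2-Q6, an MHC class Ib gene with near-identical neighbours, had 16 and 8 UMIs and a log2 ratio of -1.12.

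Ribosomal protein genes were lower together in the AC8 NK cells. Of 78 measured, 63 were lower and 15 higher, with a median log2 ratio of -0.28, against 0.01 for the same genes in all other cells of the libraries. They made 17.8% of the UMIs of wild-type and 15.1% of those of AC8 NK cells. The AC8 NK cells were also the deeper ones (medians of 959 and 1236 UMIs), and the part of depth in this result was not tested.

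The study's title names RelA, a subunit of NF-kB, so genes of this pathway were described. Of 33 subunits and targets 7 were measured, 5 higher and 2 lower, with a median of 0.40 and none 2-fold apart. No subunit of NF-kB was among the 7. The 2 lower genes were the chemokines Ccl3 and Ccl4, and Ccl5 was among the higher ones. Junb and Zfp36 are also on the list of immediate-early genes. Junb, which is also an AP-1 subunit, had 159 and 292 UMIs, 4420 CPM (3760 to 5163) and 6472 CPM (5751 to 7259), a ratio of 1.46 (1.20 to 1.79). It stood at 4495 and 5081 CPM in all other cells. Zfp36, which destabilises cytokine mRNAs, had 33 and 73 UMIs, a ratio of 1.76 (1.15 to 2.75). Tnfaip3 and Nfkbia, which restrain NF-kB, had 28 and 51, and 28 and 47 UMIs, with log2 ratios of 0.51 and 0.40. Rela itself had 1 UMI in wild type and 5 in AC8, too few to compare.

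Immediate-early genes, which cells switch on within minutes of a stimulus or of dissociation, did not move one way. Of 29 genes 24 were measured, 10 higher and 14 lower, with a median of -0.06. The 15 of them with at least 50 UMIs gave 10 higher and 5 lower and a median of 0.16, and the list summed to 27632 and 31097 CPM, a ratio of 1.13 (1.04 to 1.22). Weighting every cell equally gave 13 higher and 11 lower and a median of 0.21. Dusp1 was the gene 2-fold higher and Ier5 the gene 2-fold lower, beside 2.51% and 4.39% of all measured genes. Fos had 23 and 34 UMIs and Jun 35 and 39, with log2 ratios of 0.22 and -0.16. Fos was at -0.23 with a minimum of 1000 UMIs per cell, and Jun at 0.48 with cells that carry a Cd3 UMI kept. Nr4a1, a nuclear receptor induced by antigen and by cyclic AMP, had 60 UMIs in 18 wild-type cells and 100 UMIs in 28 AC8 cells, a ratio of 1.33 (0.95 to 1.86), and its log2 ratio of 0.40 was -0.22 with a minimum of 1000 UMIs per cell.

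Of 15 heat shock genes 9 were measured, 3 higher and 6 lower, with a median of -0.51. The list summed to 12537 CPM in wild type against 9575 CPM in AC8, a ratio of 0.76 (0.67 to 0.87). It was also lower in AC8 in the other classes, at 18836 and 13369 CPM in macrophages and 14227 and 11526 CPM in fibroblasts. In T cells it stood at 10189 and 9561 CPM, and in B cells at 6978 and 6742 CPM. Hsp90ab1, a cytosolic chaperone, had 141 and 97 UMIs, 3920 CPM (3299 to 4623) and 2150 CPM (1743 to 2623), a ratio of 0.55 (0.42 to 0.72). Hspa5, the chaperone of the endoplasmic reticulum, had 43 and 26 UMIs, a ratio of 0.48 (0.28 to 0.80). In all other cells Hsp90ab1 stood at 2765 and 2622 CPM and Hspa5 at 1273 and 872 CPM. Hspa8 was close in both libraries, with 118 and 157 UMIs, 3280 and 3480 CPM.

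Adenylyl cyclase makes cyclic AMP, and genes of cyclic AMP signalling were counted too. Adcy8 had no UMI in the NK cells of either library, and 1 UMI in all AC8 cells, so it gives no check of the labels, since the transgene is placed in a cell type that was not sorted. Of 34 genes of the list 5 were measured, 4 higher and 1 lower, none 2-fold apart, with a median of 0.40. Gnai2, an inhibitory G protein alpha subunit, had 25 UMIs in 18 cells and 54 UMIs in 24 cells, a ratio of 1.72 (1.05 to 2.89). Gnas, the stimulatory alpha subunit, had 34 and 57 UMIs, a ratio of 1.34 (0.86 to 2.11). Prkar1a, a regulatory subunit of protein kinase A, had 6 and 17 UMIs, a log2 ratio of 0.98, which was -0.08 with cells that carry a Cd3 UMI kept. Fosl2 was the lower gene, with 16 and 12 UMIs.

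Interferon genes were low and close in both libraries. Of 43 type I interferon response genes in the matrix 1 was measured, and the list summed to 63 and 77 UMIs, 1751 and 1707 CPM. Of 23 interferon gamma response genes 3 were measured, 1 higher and 2 lower, with a median of -0.09. Of 22 genes of MHC class I presentation 11 were measured, 3 higher and 8 lower, with a median of -0.09. Of these 11, H2-Q6 was the 1 that was 2-fold apart, beside 6.9% of all measured genes. The classical genes H2-D1 and H2-K1 had 106 and 102, and 96 and 122 UMIs. Of 17 genes of glycolysis 5 were measured, all 5 higher, with a median of 0.07 and none 2-fold apart.

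One AC8 NK cell carried most of the cell cycle UMIs of its library. It had 5030 UMIs, 4.07 times the median of AC8 NK cells and 11.1% of their UMIs, and it held 116 of the 183 cell cycle UMIs of the AC8 library, spread over 20 of 22 genes. Mki67, a marker of cycling cells, had 12 UMIs in it and none in any other NK cell. It also had 110 UMIs of Gzma, 29 of Nkg7, 66 of Ccl5 and 13 of Gzmb. The next highest cell had 9 cell cycle UMIs in AC8 and 7 in wild type. With this cell the cell cycle list stood at 1668 CPM in wild type against 4056 CPM in AC8, and without it, a choice made after the data were seen, AC8 stood at 1671 CPM. Tuba1b, a tubulin, had 24 of its 36 AC8 UMIs in this cell, H2az1, a histone variant, 31 of 113, and Hmgn2, a nucleosome-binding protein, 15 of 18. Without the cell the log2 ratio of Tuba1b went from 1.14 to -0.13 and that of Hmgn2 from 1.48 to -0.37.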

How the data were processed

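The deposited files hold raw UMI counts per gene and cell for 2 droplet libraries of pooled hearts. The authors made these counts with Cell Ranger from 10x Genomics, per the labels' protocols, on the mm10 build, per the submitters' processing notes; the version of Cell Ranger and any doublet filter are not given in the sources used here. Every deposited cell has at least 500 UMIs. The cell barcodes are running numbers, so barcodes shared by the libraries could not be counted.

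NK cells, T cells, B cells (at least 3 Cd79 UMIs), macrophages (at least 3 C1q UMIs) and fibroblasts (at least 10 collagen and Dcn UMIs) were taken by fixed sums of raw counts, and counts were summed per library and class. Nothing was clustered. CPM and ratios with exact intervals, and log2 ratios with 50 CPM added, were computed with scipy 1.17.1, scikit-learn 1.9.0, numpy 2.4.6 and pandas 2.3.3 under Python 3.11.15, and figures were drawn with matplotlib 3.10.9. Doublets were called by nearness to simulated pairs of cells (30 principal components, 30 neighbours, an assumed rate of 0.8% per 1000 cells), 264 calls in wild type and 183 in AC8, and were left out only in an alternative. The gene calculation was tested on simulated data. Of 22441 gene symbols 22039 (98.2%) had a GENCODE vM21 gene. Promoters come from RefSeq, the first entry by start where a gene had several.

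Named genes are the rule genes, the 12 highest and 12 lowest log2 ratios among genes with at least 30 UMIs, 150 CPM and 5 cells with a UMI in the higher library and at least 0.5 times the level of all other cells there, the 20 highest over all other cells, the 10 highest and 10 lowest against T cells, and list genes with at least 20 UMIs. Mitochondrial, ribosomal protein, hemoglobin, sex-linked, antigen receptor and unnamed genes were left out of the ranking by ratio. The members, the lists and the rules were chosen with earlier results of these data known. Other thresholds, pseudocounts, filters and totals, thinning, and leaving out single cells were tried as alternatives.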

Additional observations from a re-analysis of the deposited data

How the results depend on the processing

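No paired analysis was possible because each genotype has 1 library, and its replicate number is only a name. The difference in the NK share of leukocytes moved beyond its counting interval in 1 alternative, thinning every cell to 500 UMIs, where it was -2.30 points. It was -0.05 points with a minimum of 1000 UMIs per cell, and NK cells per T cell in AC8 over wild type ranged from 0.45 to 0.76. The counts of genes 2-fold higher and lower, 16 and 28, became 5 and 11 with 200 CPM added in place of 50, 1 and 12 among genes with at least 50 UMIs, and 255 and 275 among genes with at least 5 UMIs. Totals without mitochondrial and ribosomal protein genes left 18 lower, 14 of the 28 and 4 others, since those genes were not tested and the totals changed too. With cells that carry a Cd3 UMI kept, 5 of the 16 higher and 10 of the 28 lower genes were still 2-fold apart, and with a minimum of 1000 UMIs 7 and 13. In that last setting Gnb2 had a log2 ratio of 3.17, Dusp2 1.22, Ly6c2 0.53, Jun -0.87 and Nr4a1 -0.22. Without the AC8 cell of most UMIs, an alternative added after the data were seen, Hmgn2 was at -0.37 and Tuba1b at -0.13, both reversed, and 10 of the 16 and 23 of the 28 genes were still 2-fold apart. The causes of these changes were not tested. Depth limits what receptor genes can show: the interval of the ratio ran from 0.71 to 2.96 for Klrk1 and from 0.73 to 6.27 for Klrc2.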

Other observations

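The 18 wild-type and 9 AC8 cells that carry both NK and Cd3 UMIs shared high levels of Ccl5, 13420 and 10625 CPM, and of Nkg7, 1811 and 1867 CPM. The adaptor Fcer1g stood at 1592 CPM (58 UMIs) in wild type and 239 CPM (5 UMIs) in AC8, Tyrobp at 851 CPM (31 UMIs) and 0 UMIs, and Klre1 at 412 CPM (15 UMIs) and 47.9 CPM (1 UMI). Cd8b1, a subunit of the T cell coreceptor CD8, stood at 329 CPM (12 UMIs) and 909 CPM (19 UMIs), and Cd4 had 0 and 1 UMIs. Cxcr6, a chemokine receptor of tissue-resident lymphocytes, had 6 and 7 UMIs in these cells, against 0 and 2 in the NK cells. Their median depth was 1404 UMIs in wild type and 1879 in AC8. The ribosomal protein share was 20.6% and 35.0%, against 16.7% and 13.7% in NK cells and 37.2% and 33.2% in T cells. The difference between the libraries was not tested.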
